A study of Mus musculus with 66 samples.

Results

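The genes described here are the actomyosin and SRF target genes of 3T9-MycER fibroblasts, an immortal line from mouse embryos. They were taken by symbol: cytoplasmic and smooth muscle actins, tropomyosins, calponins, transgelins, caldesmon, leiomodin, myosin II heavy and light chains with their kinases, α-actinins, filamins, PDZ and LIM proteins, palladin, cofilins, profilins, cyclase-associated protein, formins, Arp2/3 subunits, vimentin, and the factors Srf, Mkl1 and Mkl2. The rule found 52 of the 11513 genes in each deposited table, and all 52 passed the filter on low values in all 4 tables. Acta2, Cnn1, Pdlim1, Pdlim3 and Pdlim4 were not analysed here. The cells carried floxed alleles of c-myc at both copies and had been infected with a MycER construct, which fuses the transcription factor Myc to the hormone-binding part of the oestrogen receptor so that 4-hydroxytamoxifen (OHT) makes it active. All groups shared this genotype, and cells were kept sub-confluent in medium with fetal bovine serum. The groups are the 11 times of exposure to 400 nM OHT: 0, 10, 20 and 30 min, then 1, 1.5, 2, 4, 8, 12 and 16 h. Every time had 3 libraries of total RNA, depleted of ribosomal RNA, and 3 of RNA that cells made during a 10 min pulse of 300 µM 4-thiouridine (4sU), called labelled RNA below. Exon and intron values were deposited apart. No cultures kept without OHT are labelled at later times, so time in culture and OHT cannot be told apart. Nothing in the labels says that replicates were separate cultures, so a p-value here measures the spread between libraries, which may be technical.

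Serum response factor (SRF) binds a DNA element called the CArG box. One group of its targets is controlled by the coactivators MRTF-A and MRTF-B, named Mkl1 and Mkl2 in these tables, which are held in the cytoplasm by monomeric actin and enter the nucleus when actin is drawn into filaments. Their targets are largely the parts of the contractile cytoskeleton itself: actins, the tropomyosins and calponins that lie along actin filaments, myosin II that pulls on them, and the filamins, α-actinins and LIM proteins that join them into stress fibres. In fibroblasts this machinery carries adhesion, migration and contraction. The other group of SRF targets is controlled by ternary complex factors and holds immediate early genes.

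The windows around the annotated starts of the members were read first. They show which members carry an exact match to the SRF element there. RefSeq windows (GRCm38.p6) of 300 bases around the start were matched by gene identifier for 43 of the 52 members. Among the members without a matched window were Tagln, Actb, Actg2, Csrp2, Pdlim2, Diaph1, Rock1 and Arpc5l. They are in none of the motif counts below. A CArG box was searched as CC, then 6 letters that are each A or T, then GG. Places that differ from this by a letter were not counted. An exact match was present in a window of 6 of the 43 members (14%), against 488 of all 27025 genes with a RefSeq window (1.81%). These 27025 genes were not limited to the 11513 of the deposited tables, from which the members come. The 6 members with a match were Myl9, Cnn2, Actg1, Myl6, Srf and Arpc4, and Srf held 2 boxes. The element is its own reverse complement in pattern, so a search of either strand finds the same places. An E-box, CACGTG, the element that Myc and its partner Max bind, was in windows of 6 of the 43 members (14%), against 2187 of 27025 genes (8.09%). These were Arpc5, Pfn2, Actg1, Cfl2, Myl12a and Diaph2, and no E-box overlapped a CArG box. Since members were chosen as SRF targets among other things, their share of CArG boxes is a description. The 6 windows with a CArG box are printed 5′ to 3′ in the gene's direction, with the box in capitals, in the order of their change in labelled exons at 16 h.
Myl9 (chr2:156775214-156775513, plus strand): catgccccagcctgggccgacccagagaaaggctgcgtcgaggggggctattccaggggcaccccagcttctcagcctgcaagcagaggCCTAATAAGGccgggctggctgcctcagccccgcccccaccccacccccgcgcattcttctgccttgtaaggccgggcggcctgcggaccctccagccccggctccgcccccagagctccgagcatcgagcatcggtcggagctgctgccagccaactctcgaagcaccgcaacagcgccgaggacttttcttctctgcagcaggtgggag
Cnn2 (chr10:79988350-79988649, plus strand): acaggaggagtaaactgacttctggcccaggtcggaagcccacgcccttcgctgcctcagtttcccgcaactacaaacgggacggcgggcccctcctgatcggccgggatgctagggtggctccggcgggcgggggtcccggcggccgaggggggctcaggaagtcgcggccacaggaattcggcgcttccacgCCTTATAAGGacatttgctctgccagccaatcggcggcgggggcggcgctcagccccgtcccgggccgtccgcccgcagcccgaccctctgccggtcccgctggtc
Actg1 (chr11:120348446-120348745, minus strand): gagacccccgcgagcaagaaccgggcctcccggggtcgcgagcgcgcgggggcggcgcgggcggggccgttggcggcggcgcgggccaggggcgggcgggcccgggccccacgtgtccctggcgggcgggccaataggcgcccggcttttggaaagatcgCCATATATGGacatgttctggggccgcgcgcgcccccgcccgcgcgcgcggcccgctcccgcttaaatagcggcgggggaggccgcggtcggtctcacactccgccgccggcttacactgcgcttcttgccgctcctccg
Myl6 (chr10:128492960-128493259, minus strand): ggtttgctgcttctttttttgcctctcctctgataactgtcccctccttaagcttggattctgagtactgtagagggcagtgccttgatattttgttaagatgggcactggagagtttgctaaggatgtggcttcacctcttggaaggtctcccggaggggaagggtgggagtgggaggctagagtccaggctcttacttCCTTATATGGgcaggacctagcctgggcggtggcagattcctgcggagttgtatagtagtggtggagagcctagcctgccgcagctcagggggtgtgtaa
Srf (chr17:46556113-46556412, minus strand): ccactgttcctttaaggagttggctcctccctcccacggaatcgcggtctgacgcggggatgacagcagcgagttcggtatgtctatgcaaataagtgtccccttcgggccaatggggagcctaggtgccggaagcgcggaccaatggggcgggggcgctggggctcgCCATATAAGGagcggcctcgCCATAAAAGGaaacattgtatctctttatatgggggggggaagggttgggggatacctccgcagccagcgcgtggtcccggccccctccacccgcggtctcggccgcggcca
Arpc4 (chr6:113377863-113378162, plus strand): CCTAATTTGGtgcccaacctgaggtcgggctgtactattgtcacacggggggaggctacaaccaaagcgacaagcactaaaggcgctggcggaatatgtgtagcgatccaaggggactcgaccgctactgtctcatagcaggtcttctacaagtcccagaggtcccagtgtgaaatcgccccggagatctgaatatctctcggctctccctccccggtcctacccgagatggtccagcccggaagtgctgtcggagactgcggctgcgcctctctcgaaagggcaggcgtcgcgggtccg

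In the printed windows the first base of the box lay at -161 from the start in Myl9, at -56 in Cnn2, at -90 in Actg1, at -50 in Myl6, at -82 and -62 in Srf, and at -250 in Arpc4, counting the annotated start as 0. In labelled exons at 16 h, 21.5% of all genes tested fell. All 6 genes with a CArG box fell there, with a median log2 change of -1.02 and a range of -1.82 to -0.28. Of the 37 members with a window and no exact CArG match, 27 fell, with a median of -0.50. Their range was -1.89 to 0.17, so the ranges overlapped. Of the 6 members with an E-box, 4 fell and none rose, with a median of -0.46 and a range of -1.02 to -0.23. Of the 37 with a window and no E-box, 29 fell, with a median of -0.58 and a range of -1.89 to 0.17. A match is a run of letters in a window, and binding was not measured here.

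Some facts of the whole series bear on all values. The deposited values summed to 11620000 to 14120000 per labelled exon library and to 46500000 to 52720000 per total exon library, but they had been rescaled, so true depth is unknown. Values below are deposited values after scaling between libraries, so changes are measured against the middle of each library. Changes are log2(value + 1) differences against 0 min, and the added 1 understates the change of low genes. No added reference RNA is described, so a change of all RNA together cannot be seen. Fibroblast markers were present, with 8 of the 9 listed genes in the tables and a summed total exon level of 1730 to 1810 RPKM at 16 h and 2920 to 3050 RPKM at 0 min, most of it S100a4 (1360 RPKM at 16 h and 2270 RPKM at 0 min). Of these 8 markers, 7 fell in labelled exons at 16 h (median log2 change -0.87), as most members did. Over all genes tested 21.5% fell there. What part these 8 markers had in the members' changes was not tested. Of markers of smooth muscle, 2 of 6 were in the tables, with sums of 10.9 to 12.8 RPKM at 16 h and 19.1 to 21.8 RPKM at 0 min; nearly all was Smtn, and Myh11 stood at 0.024 RPKM at 16 h and 0.0219 RPKM at 0 min. Leukocyte markers (3 of 5) summed to 4.38 to 4.55 RPKM at 16 h and 2.64 to 2.89 RPKM at 0 min, neural markers (3 of 4) to 91 to 97.2 RPKM at 16 h and 94.5 to 98.8 RPKM at 0 min, and striated muscle and endothelium (1 listed gene each) to at most 1.38 RPKM. Within the neural sum Tubb3 stood at 23.7 RPKM at 16 h and 7.31 RPKM at 0 min, Nes at 69.4 RPKM at 16 h and 86.8 RPKM at 0 min, and Map2 at 1.06 RPKM at 16 h and 2.03 RPKM at 0 min. At 16 h Tubb3 rose in labelled exons (log2 change 1.83) and total exons (1.70), and Nes, Map2 and Smtn fell in both. Csf1r (0.70 in labelled and 1.52 in total exons) and Pecam1 (1.37 and 1.32) rose in both, and Cd68 rose in total exons (0.49). The part of these markers in the members' changes was not tested. Of 5 epithelial markers none was analysed here. None of the measured markers was at 0 in all 0 min libraries, and Pecam1, at 0.122 RPKM at 16 h and 0.047 RPKM at 0 min, and Ptprc, at 0.0746 RPKM at 16 h and 0.0438 RPKM at 0 min, were near 0.

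Most members were lower late in the course. In labelled exons at 16 h, 39 of the 52 fell and 1 rose at an adjusted p under 0.05, while 21.5% of all genes tested fell and 22.9% rose. The median log2 change of the members was -0.54, against 0.02 over all genes. In total exons at 16 h, 42 fell and 2 rose, against 29% and 27% of all genes, with medians of -0.59 over the members and -0.01 over all genes. In bulk RNA, fewer cells of a type and less RNA per cell cannot be told apart. In labelled exons at 16 h, 43 of the 52 members had all 3 libraries below all 3 at 0 min, as did 25% of all genes tested. The members' summed exon value was 2.39 ± 0.0924% of all exon values of a total RNA library at 16 h and 3.77 ± 0.114% at 0 min (SD, n = 3). Of all exon values of a labelled library it was 1.56 ± 0.0588% at 16 h and 2.5 ± 0.146% at 0 min. Intron values are not part of these shares.

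**Figure D1:**
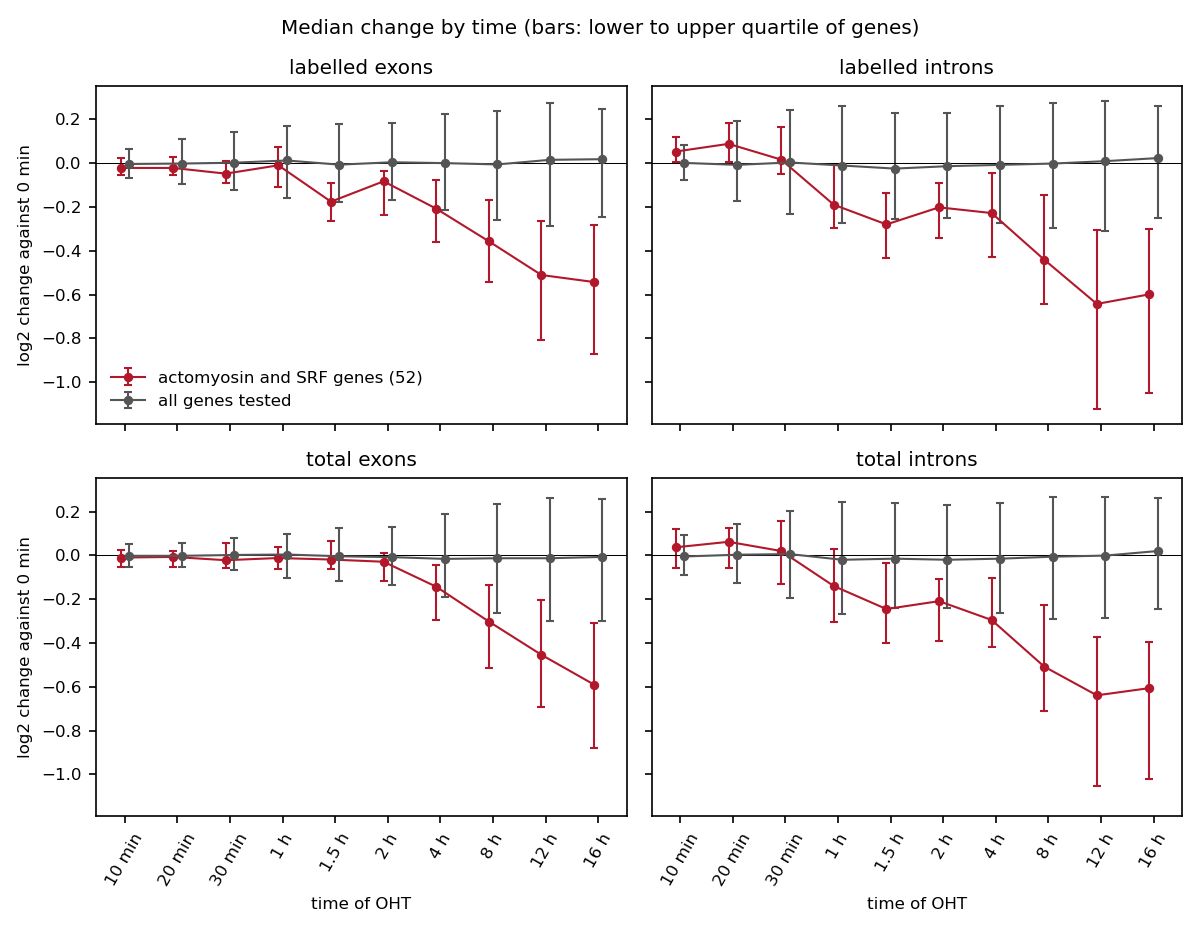
Median log2 change against 0 min (points) with lower and upper quartiles of genes (bars) at each time of OHT, for the 52 genes and for all genes tested, in 4 panels for labelled and total exons and introns. The median of the 52 genes reached -0.54 in labelled exons and -0.59 in total exons at 16 h, while that of all genes stayed near 0.

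The course to that point was not even. In labelled exons, no member passed the threshold at 10 min with limma, and none did at an unadjusted p under 0.05; over all 11475 genes 0% were called there. At 20 min Srf alone rose, and at 30 min none was called, with 2 higher and 2 lower at an unadjusted p under 0.05. Over all genes, 3.3% rose and 0.732% fell at 20 min, and 8.02% rose and 3.63% fell at 30 min. At 1 h, 1 member rose (Arpc1b) and 1 fell (Palld), while 13.8% of all genes rose and 9.46% fell. At 1.5 h, 15 members fell and none rose, against 11.2% of all genes falling and 14.8% rising, and the members' median log2 change was -0.18. At 2 h, 9 members fell and none rose (11.4% and 15.5% of all genes), with a median of -0.08. At 4 h, 22 members fell and 2 rose (18.8% and 19.4% of all genes), with a median of -0.21. At 8 h, 35 fell and 2 rose (22.2% and 22.1%), and at 12 h, 39 fell and 1 rose (24.3% and 25.2%), with medians of -0.36 and -0.51. All of these comparisons share the 0 min libraries.

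Early calls were fewer in total RNA. In total exons no member was called at 10 min, 20 min, 30 min or 1 h with limma; at an unadjusted p under 0.05, 1 was lower at 10 min, none at 20 min, 2 were higher and 2 lower at 30 min, and 1 was lower at 1 h. Over all genes none were called at 10 min (0%). At 20 min 0.0436% rose and 0% fell, at 30 min 0.331% rose and 0.0349% fell, and at 1 h 5.24% rose and 3.48% fell. At 1.5 h Cfl2 fell and Diaph1 rose, and at 2 h Cfl2 and Mkl2 fell, while 7.64% and 10.3% of all genes fell and 9.28% and 11.7% rose. At 4 h, 15 members fell and 2 rose (Diaph1 and Arpc5l), against 19.5% and 19.7% of all genes, and the members' median was -0.14. With the replicate number as a block, 23 members fell in total exons at 4 h. The deviations of same-numbered libraries at 4 h and 0 min correlated weakly (0.12 to 0.189), and no label states a pairing. At 8 h, 28 fell and 2 rose (26% and 25% of all genes), and at 12 h, 37 fell and 2 rose (29.7% and 27.4%), with medians of -0.30 and -0.45.

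Members were then counted by the time from which they stayed called down through 16 h, beside the same count over all genes tested. In labelled exons 7 of 52 members had stayed down from 1.5 h or before (13.5%), against 4.44% of all genes. From 4 h or before it was 21 (40.4%, against 11.6%), from 8 h or before 33 (63.5%, against 15.8%) and from 12 h or before 38 (73.1%, against 19%). The 7 earliest were Arpc5, Cap1, Cfl2, Csrp1, Flna, Mkl2 and Pdlim7. In total exons 1 member had stayed down from 1.5 h (1.92%, against 3.26% of all genes), 14 from 4 h or before (26.9%, against 13.8%), 26 from 8 h or before (50%, against 20.9%) and 37 from 12 h or before (71.2%, against 25.5%). In labelled introns it was 10 from 1 h or before (19.2%, against 7.5%), 18 from 4 h or before (34.6%, against 14.5%) and 34 from 8 h or before (65.4%, against 18.1%). These are counts of calls, and a later call can also come from a smaller change or a wider spread.

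**Figure D2:**
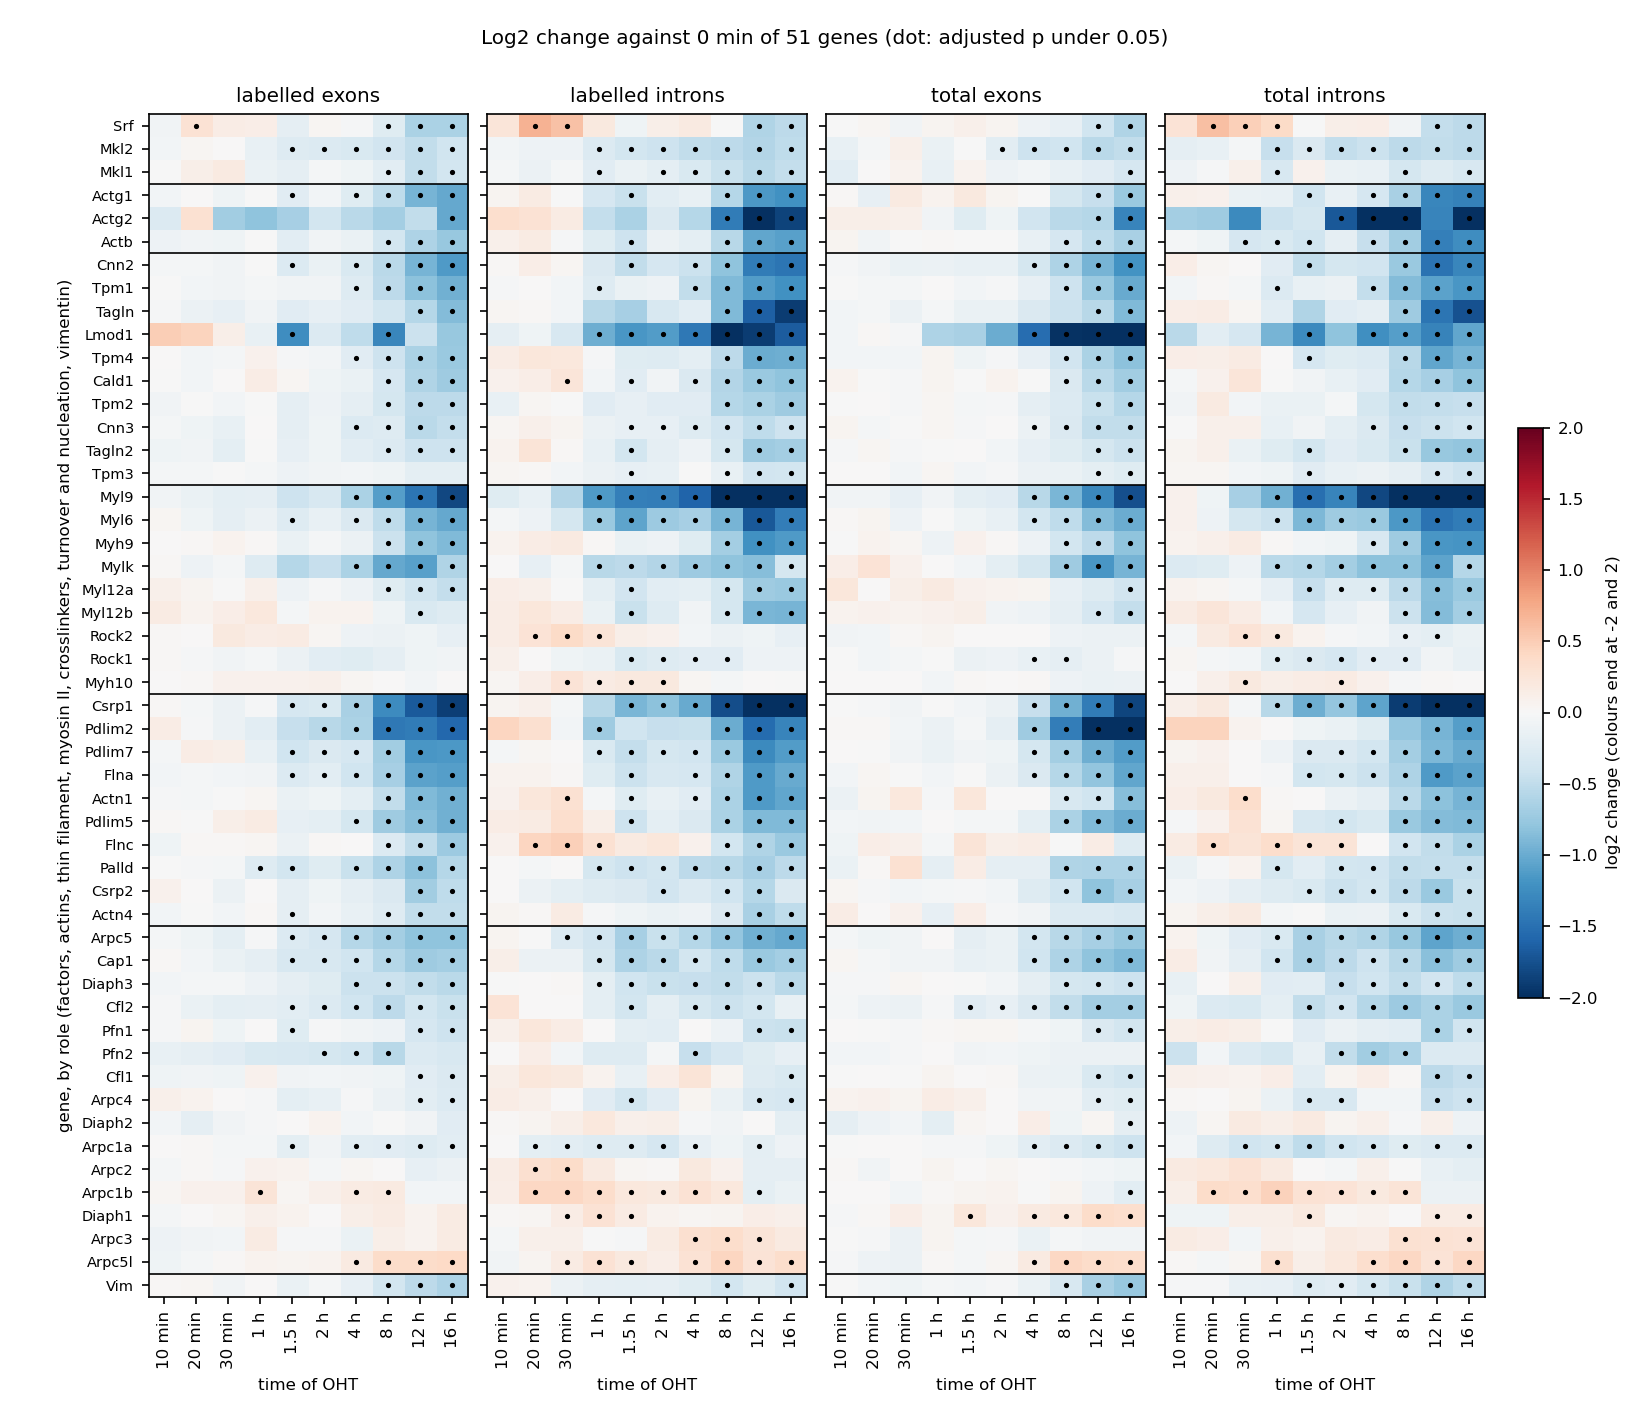
Log2 change against 0 min of 51 of the 52 genes (rows, grouped by role) at each time of OHT (columns) in labelled exons, labelled introns, total exons and total introns, with a dot where the adjusted p was under 0.05. Blue is lower and red higher than 0 min, and colours end at -2 and 2. Most rows turn blue from 4 h to 16 h, while Arpc5l and Diaph1 do not, and Srf, Flnc, Rock2 and Arpc1b are red in introns at 20 min and 30 min.

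The transcription factor itself and its coactivators were lower at 16 h in both kinds of RNA. Srf, which encodes SRF, had labelled exon values of 1211, 1100.1 and 1231 at 0 min, 1106, 1261 and 1106 at 4 h and 881, 730.4 and 678 at 16 h. The 4 h values overlapped those of 0 min, and all 3 values at 16 h lay below them. The log2 change at 16 h was -0.64 ± 0.09 (SE, adjusted p = 1.96e-07). In total exons Srf had 4592, 3864 and 3900 at 16 h, against 6587, 6589.9 and 5652 at 0 min, a log2 change of -0.61 ± 0.09 with no overlap. Mkl1, the gene of MRTF-A, had labelled exon values of 1504, 1396 and 1583 at 0 min, 1365, 1493 and 1384 at 4 h and 1202, 1182 and 1081 at 16 h, and Mkl2, the gene of MRTF-B, had 897, 824 and 856 at 0 min, 733, 718 and 647 at 4 h and 669.7, 620.2 and 667 at 16 h. In labelled exons at 16 h Mkl1 fell by 0.37 and Mkl2 by 0.40 on the log2 scale. In total exons Mkl1 had 1929, 1775 and 1836 at 16 h, against 2232, 2196 and 2575 at 0 min, and Mkl2 had 1464, 1264 and 1350.4 at 16 h, against 1852, 1821 and 2057 at 0 min. Their total exon changes were -0.34 ± 0.13 for Mkl1 and -0.49 ± 0.07 for Mkl2 on the log2 scale. The call of Mkl1 in total exons ended without the library of replicate 2 or 3 at 16 h or of replicate 3 at 0 min, and with scaling to library sums, where its adjusted p reached 0.129 at most.

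Before its fall, Srf rose. Its labelled exons had 1360, 1504 and 1476 at 20 min, against 1211, 1100.1 and 1231 at 0 min, a log2 change of 0.29 ± 0.09 (adjusted p = 0.048), and it was the member called at that time. Intron reads stand for RNA not yet spliced. Labelled introns of Srf had 912, 1040 and 1134 at 20 min, against 636, 604 and 651 at 0 min, a log2 change of 0.70 ± 0.15 (adjusted p = 0.000543). At 30 min they had 974, 849 and 1034, and the change was 0.59 ± 0.15. The values of both times lay above all 3 at 0 min. By 1 h they had 787, 766 and 633, a log2 change of 0.20 that did not pass the threshold (adjusted p = 0.276). At 12 h and 16 h Srf introns fell, by 0.60 and 0.53 on the log2 scale. Total introns of Srf rose too, with log2 changes of 0.60 ± 0.15 at 20 min, 0.48 ± 0.15 at 30 min and 0.38 ± 0.15 at 1 h (adjusted p = 0.0438, with overlapping libraries), while the total exon change at 20 min was 0.04 ± 0.09 (adjusted p = 1).

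Other members also rose early in labelled introns. At 20 min 5 members rose and 1 fell, against 16.7% and 13.3% of all genes tested, and at 30 min 10 rose and 2 fell, against 22.2% and 20%, so these shares of members were below those of all genes. Besides Srf, the members that rose at 30 min were Flnc, a muscle filamin (0.47 on the log2 scale), the Arp2/3 subunit genes Arpc1b (0.41), Arpc2 (0.36) and Arpc5l (0.16), Rock2, a kinase of myosin light chains (0.38), the α-actinin gene Actn1 (0.31), the non-muscle myosin heavy chain gene Myh10 (0.27), caldesmon Cald1 (0.25) and the formin gene Diaph1 (0.15). Labelled introns of Flnc had 1481, 1608 and 1679 at 30 min, against 1231, 1015 and 1204 at 0 min. Those of Rock2 had 27549, 22534 and 25491 at 30 min, against 19696, 20441 and 17728 at 0 min. In both genes the 30 min libraries lay above all 3 at 0 min. The fallen introns at 30 min were of Arpc1a (-0.21) and Arpc5 (-0.27). The calls of Srf, Flnc, Arpc1b, Arpc2, Rock2 and Myh10 held in all 15 alternatives. That of Actn1 held in 13, Cald1 in 12, Arpc1a in 11, Diaph1 in 10, Arpc5l in 9 and Arpc5 in 7. Their highest adjusted p was 0.0789 (Actn1), 0.132 (Cald1), 0.085 (Arpc1a), 0.405 (Diaph1), 0.449 (Arpc5l) and 0.213 (Arpc5). Among the settings that ended a call were library sums for Cald1 and Actn1, leaving out replicate 3 at 30 min or replicate 1 at 0 min for Cald1, replicate 2 at 0 min for Actn1, replicate 3 at 0 min for Arpc1a, replicate 1 or 3 at 30 min or replicate 3 at 0 min for Diaph1, replicate 2 or 3 at either time for Arpc5l, and replicate 1 or 2 at 30 min or any library at 0 min for Arpc5. With scaling to library sums, which moved the median of all genes by -0.1, 6 members rose and 4 fell. At 1 h, 6 rose and 14 fell (24.8% and 24.4% of all genes), and at 1.5 h, 4 rose and 27 fell (22.7% and 21.5%). At 4 h, 22 members fell and 3 rose in labelled introns (24.9% and 24.8%), at 8 h 38 and 3 (26.1% and 26.6%), and at 12 h 41 and 2 (26.8% and 27.9%).

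**Figure D3:**
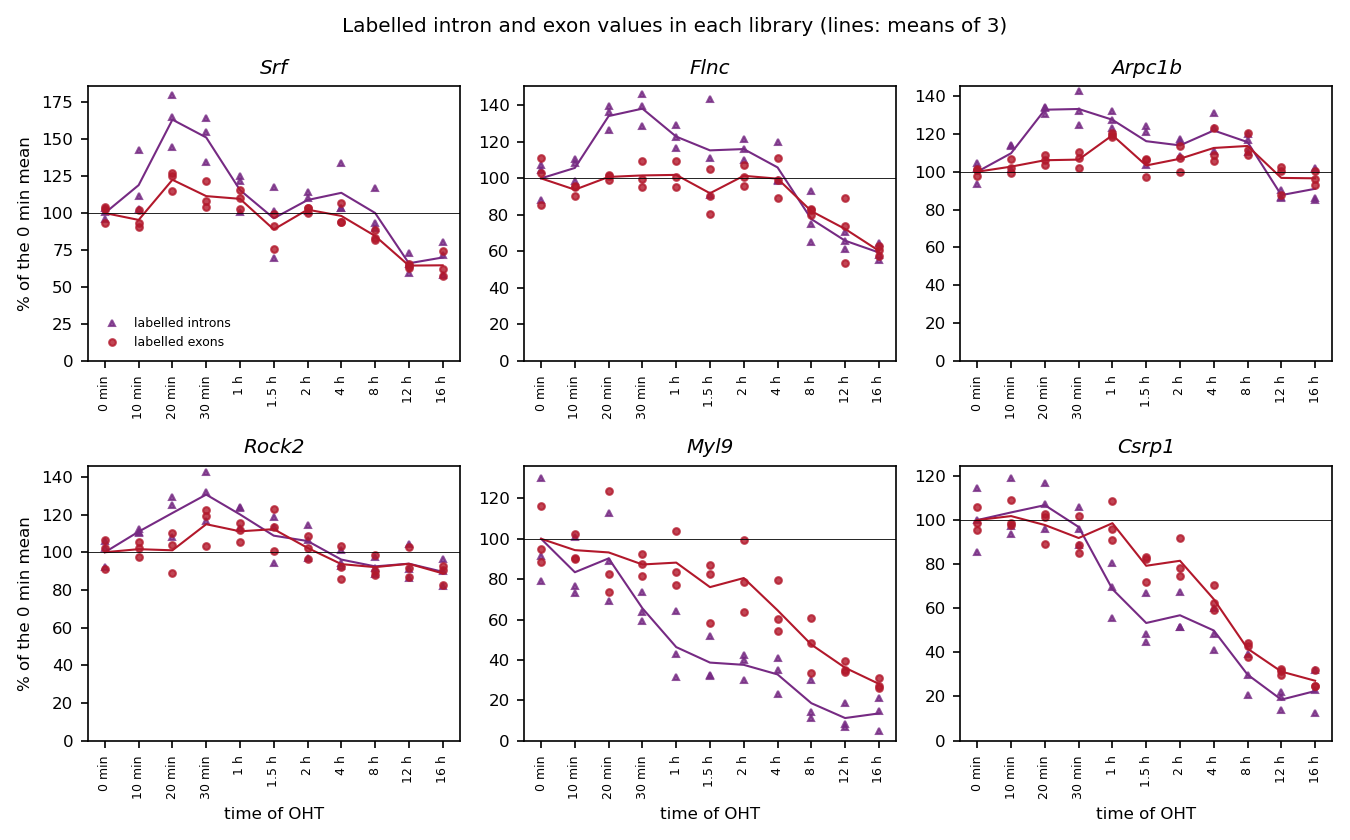
Labelled intron (triangles) and labelled exon (circles) values of 6 genes in each library, as a percentage of the mean at 0 min, over the times of OHT, with lines through the means of 3 libraries. Introns of Srf, Flnc, Arpc1b and Rock2 are high at 20 min and 30 min, and introns of Myl9 and Csrp1 lie below their exons from 1 h.

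All 3 measured actins fell at 16 h in labelled and in total exons, where 21.5% and 29% of all genes fell. Actb, the gene of cytoplasmic β-actin (Entrez 11461, chromosome 5 from 143664794 to 143668433 in mm9), was the most abundant member, with 2260 ± 158 RPKM at 16 h and 3550 ± 264 RPKM at 0 min in total RNA (SD, n = 3). Its labelled exon values were 40448, 31422 and 38395 at 0 min, 33189, 34323 and 32079 at 4 h and 21848, 19082 and 24558 at 16 h. The 4 h libraries overlapped those of 0 min and the 16 h libraries did not, with a log2 change at 16 h of -0.75 ± 0.11 (adjusted p = 9.63e-07). In total exons Actb had 277600, 248890 and 252990 at 16 h, against 433890, 405070 and 383860 at 0 min, a change of -0.65 ± 0.11. Actg1, the gene of cytoplasmic γ-actin, had labelled exon values of 23933, 20957 and 24871 at 0 min, 19885, 19390 and 19808 at 4 h and 11929, 10987 and 11349 at 16 h. All 3 values at 4 h lay below those of 0 min and all 3 at 16 h below those of 4 h, and the change at 16 h was -1.02 ± 0.07 (adjusted p = 2.24e-14); without replicate 3 at 0 min the 4 h call ended (adjusted p = 0.0611). In total exons Actg1 had 58807, 50454 and 48471 at 16 h, against 80172, 90190 and 92856 at 0 min, a change of -0.74 ± 0.15. Actg2, a smooth muscle actin, was low, with labelled exon values of 43.5, 20.1 and 21.2 at 0 min, 20.8, 17.3 and 16.1 at 4 h and 10.9, 12 and 15.2 at 16 h, and its call at 16 h (log2 change -1.02 ± 0.42, adjusted p = 0.0477) ended without any library of 16 h or replicate 1 at 0 min (adjusted p up to 0.255). In total exons Actg2 had 44.9, 56.2 and 85.8 at 16 h, against 149.7, 149 and 155 at 0 min. Actins share much of their coding sequence and have processed pseudogenes, so reads may be split between them.

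Genes of proteins that lie along the actin filament were mostly lower. Of the 10 measured, 8 fell in labelled exons and 10 in total exons at 16 h, where 21.5% and 29% of all genes fell. The medians of the 10 were -0.72 and -0.76 on the log2 scale, against 0.02 and -0.01 over all genes. Cnn2, a calponin that binds actin filaments, had labelled exon values of 3678, 3552 and 3876 at 0 min, 3003, 3057 and 2956 at 4 h and 1869, 1489 and 1721 at 16 h. Each library at 4 h and at 16 h lay below all 3 at 0 min, and the change at 16 h was -1.13 ± 0.07 (adjusted p = 1.34e-15). Total exons of Cnn2 had 12534, 11490 and 11024 at 16 h, against 28283, 26194 and 25501 at 0 min. Tpm1, a tropomyosin that stabilises filaments, had labelled exon values of 19349, 19043 and 19611 at 0 min, 17533, 15115 and 15876 at 4 h and 10216, 9099 and 10489 at 16 h, a change at 16 h of -0.96 ± 0.07 (adjusted p = 3e-13). Its total exons had 59655, 56958 and 56714 at 16 h, against 123530, 112130 and 113720 at 0 min. Tpm2, another tropomyosin, had labelled exon values of 1898, 1838 and 2022 at 0 min, 1846, 1707 and 1547 at 4 h and 1434, 1275 and 1299 at 16 h, and its total exons had 5217, 5553 and 5025 at 16 h, against 8091, 8261 and 7162 at 0 min. The change of Tpm2 at 16 h was -0.52 ± 0.11 in labelled and -0.57 ± 0.12 in total exons.

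Tagln, the gene of transgelin or SM22 and a classic SRF target (Entrez 21345, chromosome 9 from 45737711 to 45744141 in mm9), had labelled exon values of 4369, 3869 and 4803 at 0 min, 4583, 3431 and 3192 at 4 h and 2652, 2103 and 2399 at 16 h. The libraries at 4 h overlapped those of 0 min and those at 16 h did not, with a change of -0.87 ± 0.17 at 16 h (adjusted p = 6.74e-05). In total exons Tagln had 15344, 16261 and 12997 at 16 h, against 30629, 28966 and 22635 at 0 min, a change of -0.88 ± 0.21. Tpm4 had labelled exon values of 8866, 8994 and 8941 at 0 min, 8126, 7307 and 7597 at 4 h and 5655, 4946 and 5506 at 16 h, and Cald1, the gene of caldesmon, had 12357, 11892 and 12218 at 0 min, 12120, 10984 and 10361 at 4 h and 8024, 7026 and 7287 at 16 h. At 16 h they fell by 0.74 (Tpm4) and 0.71 (Cald1) on the log2 scale. Cnn3 (-0.47) and Tagln2 (-0.41) fell less far. Tpm3 did not pass the threshold in labelled exons (-0.19 ± 0.09, adjusted p = 0.0646) and fell in total exons (-0.24 ± 0.07, adjusted p = 0.00724). Lmod1, which nucleates actin filaments in smooth muscle, was near the floor of detection, with labelled exon values of 23.2, 27.2 and 21.2 at 0 min, 16.9, 17.3 and 15.1 at 4 h and 15.9, 15 and 10.5 at 16 h; its total exons had 24.4, 9.03 and 6.83 at 16 h, against 70.5, 67 and 41 at 0 min, a change of -2.23 ± 0.56.

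The light chain genes Myl9, Myl6 and Myl12a and the heavy chain gene Myh9 fell at 16 h, while the kinase genes Rock1 and Rock2 did not pass the threshold. Of 9 genes in this role, 5 fell in labelled exons and 6 in total exons at 16 h, where 21.5% and 29% of all genes fell. Myl9, the gene of a regulatory light chain of smooth and non-muscle myosin II, had labelled exon values of 1112, 1038 and 1364 at 0 min, 929.6, 705 and 634 at 4 h and 362, 319 and 308 at 16 h. The 3 libraries at 4 h lay below all 3 at 0 min and those at 16 h lower still, with a change of -1.82 ± 0.18 at 16 h (adjusted p = 1.75e-10). In total exons Myl9 had 2889.9, 2809.7 and 2354 at 16 h, against 9679, 10254 and 7529 at 0 min, a change of -1.76 ± 0.22. At 4 h the total exon change of Myl9 was -0.56 ± 0.22, and that call ended without replicate 2 or 3 at 4 h or replicate 1 or 2 at 0 min (adjusted p up to 0.224). Labelled introns of Myl9 had fallen by 1 h, with 125, 186 and 91.8 at 1 h, against 228, 264 and 376 at 0 min, a change of -1.13 ± 0.39 (adjusted p = 0.0161). At 16 h they had 60.7, 42.8 and 13.5, and the change was -3.06 ± 0.39. The labelled intron to exon ratio fell at 1 h for 2 of the 52 members, while it fell for 4.94% of all genes. These were Myl6 (-0.64 ± 0.17 on the log2 scale, adjusted p = 0.0119) and Myl9 (-0.95 ± 0.32, adjusted p = 0.0481). At 1.5 h the ratio fell with limma for 2 members, Myl6 (-0.80 ± 0.17, adjusted p = 0.00259) and Cap1 (-0.305 ± 0.096, adjusted p = 0.0487). Over all genes it fell for 268 and rose for 468 of 11463. The change of -0.96 ± 0.32 in Myl9 did not pass at 1.5 h (adjusted p = 0.0636).

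Myl6, the gene of the essential light chain, had labelled exon values of 5411, 4406 and 5103 at 0 min, 4585, 3859 and 3732 at 4 h and 2686, 2282 and 2382 at 16 h. Its change at 16 h was -1.02 ± 0.09 (adjusted p = 4.41e-11). The call at 4 h (-0.29 ± 0.09) ended without replicate 2 or 3 at 4 h or replicate 1 at 0 min, where the adjusted p reached 0.0814. Myh9, the gene of non-muscle myosin heavy chain IIA, had labelled exon values of 32719, 29856 and 32061 at 0 min, 29856, 30648 and 26711 at 4 h and 18057, 16371 and 16656 at 16 h. The libraries at 4 h overlapped those of 0 min, and the change at 16 h was -0.89 ± 0.08 (adjusted p = 1.33e-11). Myh10, the gene of heavy chain IIB, had 8515, 8134 and 8446 at 0 min, 8481, 8865 and 8562 at 4 h and 8629.8, 8182 and 8427 at 16 h, and its change at 16 h was 0.01 ± 0.06 (adjusted p = 0.922). In total exons Myh9 fell (-0.80 ± 0.12) and Myh10 did not pass (-0.12 ± 0.07). Mylk, the gene of myosin light chain kinase, was low. Its labelled exon values were 145, 151 and 165 at 0 min, 106, 96.8 and 93.6 at 4 h and 123, 121 and 69.5 at 16 h, lowest at 12 h by log2 change (-1.09 ± 0.22, against -0.60 ± 0.22 at 16 h). Its call at 16 h ended without replicate 3 at 16 h or replicate 2 or 3 at 0 min (adjusted p up to 0.27). Rock1 (-0.07 ± 0.10) and Rock2 (-0.17 ± 0.09), kinases that promote myosin II activity, did not pass at 16 h in labelled exons, nor in total exons (-0.03 ± 0.05 and -0.11 ± 0.06). Myl12a (-0.47 ± 0.07) fell in labelled exons and Myl12b (-0.25 ± 0.11) did not pass. Both fell in total exons (Myl12a -0.38 ± 0.12, Myl12b -0.48 ± 0.12), and these near-identical genes may share reads; the Myl12a call ended without replicate 3 at 16 h (adjusted p = 0.0634).

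All 11 crosslinkers and scaffolds fell in labelled exons at 16 h (median log2 change -0.96), where 21.5% of all genes fell. In total exons 9 of 11 fell (median -0.86), where 29% of all genes fell. Csrp1, a LIM protein of actin bundles (Entrez 13007, chromosome 1 from 137616638 to 137648809 in mm9), had labelled exon values of 1096, 1061 and 1179.7 at 0 min, 787, 660.4 and 693 at 4 h and 354, 276 and 276 at 16 h. The groups did not overlap, and the change at 16 h was -1.89 ± 0.10 (adjusted p = 2.64e-17). Total exons of Csrp1 had 3241, 2593 and 2266 at 16 h, against 10195, 9984 and 8578 at 0 min, a change of -1.84 ± 0.15. Pdlim2, of the PDZ and LIM family at stress fibres, was low and had labelled exon values of 75.4, 91.6 and 112 at 0 min, 51.6, 67.3 and 59.4 at 4 h and 26.7, 28.1 and 37.1 at 16 h. Its total exons had 87.9, 82.3 and 43.9 at 16 h, against 331, 379 and 289 at 0 min, a change of -2.26 ± 0.18. Pdlim7 had labelled exon values of 2398, 2017 and 2466 at 0 min, 2002, 1767 and 1696 at 4 h and 1199, 958 and 950.1 at 16 h, a change at 16 h of -1.15 ± 0.10. Pdlim5 fell by 0.96 on the log2 scale. The call of Csrp1 in total exons at 4 h (-0.46 ± 0.15) ended without replicate 2 or 3 at 4 h or replicate 1 or 2 at 0 min (adjusted p up to 0.0764), and that of Pdlim7 without replicate 3 at 4 h (adjusted p = 0.0572).

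Filamins join actin filaments into networks. Flna (Entrez 192176, chromosome X from 71468800 to 71495159 in mm9) averaged 15300 ± 844 at 16 h and 32700 ± 1770 at 0 min in labelled exons (SD, n = 3), a change of -1.10 ± 0.07. Flnc changed by -0.72 ± 0.11 in labelled exons, but in total exons its change of -0.26 ± 0.16 did not pass the threshold (adjusted p = 0.168). The α-actinin genes Actn1 and Actn4 averaged 3583 ± 417 at 16 h and 6987 ± 879 at 0 min (Actn1) and 4137 ± 191 at 16 h and 5845 ± 447 at 0 min (Actn4), with changes of -0.96 ± 0.10 and -0.50 ± 0.07. In total exons Actn1 fell (-0.86 ± 0.10) and Actn4 did not pass (-0.33 ± 0.16, adjusted p = 0.0898). Palld, the gene of palladin, was the first crosslinker to pass, at 1 h in labelled exons (-0.25 ± 0.09, adjusted p = 0.0448). That call ended without replicate 1 or 3 at 1 h or any library at 0 min (adjusted p up to 0.236). At 12 h its change was -0.82 ± 0.09 and at 16 h -0.58 ± 0.09. Csrp2 changed by -0.51 ± 0.15 at 16 h.

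Of 15 genes of actin turnover and nucleation, 8 fell and 1 rose in labelled exons at 16 h (median log2 change -0.28), where 21.5% of all genes fell and 22.9% rose. In total exons 10 of the 15 fell and 2 rose (median -0.24), where 29% of all genes fell and 27% rose. Arpc5, an Arp2/3 subunit, had labelled exon values of 1235, 1278 and 1291 at 0 min, 981, 713 and 874 at 4 h and 742, 692 and 733 at 16 h, a change at 16 h of -0.81 ± 0.08 (adjusted p = 1.08e-10). Its paralogue Arpc5l, which takes the same place in the complex (Entrez 74192, chromosome 2 from 38863596 to 38871397 in mm9), had 764, 709.6 and 677 at 0 min, 818, 827 and 779 at 4 h and 971, 859 and 1002 at 16 h. Arpc5l rose, with no overlap at 16 h and a change of 0.40 ± 0.07 (adjusted p = 1.7e-05). In total exons Arpc5 had 4837, 4463 and 4447 at 16 h, against 8523, 7386 and 7412 at 0 min, and Arpc5l had 3586, 3874 and 3998 at 16 h, against 3317, 2902 and 2756 at 0 min. The rise of Arpc5l at 4 h ended in 10 of 15 alternatives in labelled exons (adjusted p up to 0.289) and in 9 of 15 in total exons (up to 0.21), while that at 16 h held in all 15 of each.

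Cap1, the cyclase-associated protein that recycles actin monomers, had labelled exon values of 3338, 3067 and 3354 at 0 min, 2658, 2369.5 and 2363 at 4 h and 2208, 1929 and 1976 at 16 h, a change at 16 h of -0.68 ± 0.07. Diaph3, a formin that elongates filaments, had 2976, 3844 and 3438 at 0 min, 3002, 2075 and 2605 at 4 h and 2193, 2432 and 2422 at 16 h, a change of -0.54 ± 0.10. Diaph1, another formin, had labelled exon values of 946, 898 and 931 at 0 min and 1056, 916 and 1056 at 4 h. At 16 h it had 985, 1034 and 1095 and did not pass with limma (0.17 ± 0.08, adjusted p = 0.0958). In total exons Diaph1 had 3099.8, 3092 and 3449.5 at 16 h, against 2544, 2352 and 2781 at 0 min and rose by 0.33 on the log2 scale (adjusted p = 8.1e-05); its rise at 4 h ended in 10 of 15 alternatives (adjusted p up to 0.207). Diaph2 did not pass in labelled exons (-0.23 ± 0.11), and its fall in total exons (-0.19 ± 0.08) ended in 9 of 15 alternatives, among them leaving out any library at 16 h or replicate 1 or 3 at 0 min (adjusted p up to 0.141). Arpc1b rose in labelled exons at 1 h (0.26 ± 0.06), 4 h (0.17 ± 0.06) and 8 h (0.18 ± 0.06), with 2775, 2875 and 2862 at 0 min, 3357, 3381 and 3416 at 1 h, 3003, 3090 and 3487 at 4 h and 2720.4, 2642 and 2851 at 16 h. The 1 h libraries lay above all 3 at 0 min and the 16 h libraries overlapped them. The 4 h call ended in 8 of 15 alternatives (adjusted p up to 0.308), among them leaving out replicate 3 at 4 h or any library at 0 min. In total exons at 16 h Arpc1b fell (-0.21 ± 0.05, adjusted p = 0.000328).

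The remaining genes of this role are given next. Cfl2 and Cfl1 encode cofilins, which sever filaments, and their labelled exons fell at 16 h by 0.45 (Cfl2) and 0.28 (Cfl1) on the log2 scale. The Cfl1 call ended without replicate 2 at 16 h or replicate 3 at 0 min (adjusted p up to 0.0801). Pfn1, the gene of profilin, which loads actin monomers, fell by 0.42, and the change of Pfn2 at 16 h (-0.32 ± 0.14) lay at the threshold (adjusted p = 0.05) and was called in 7 of 15 alternatives (adjusted p down to 0.0301). Among the Arp2/3 subunits, Arpc4 (-0.28) and Arpc1a (-0.21) fell, Arpc1a not without replicate 3 at 16 h (adjusted p = 0.0547). Arpc2 (-0.12) and Arpc3 (0.17) did not pass. Labelled introns of Arpc3 rose at 4 h, 8 h and 12 h, with 796, 809 and 713 at 8 h, against 645, 542 and 627 at 0 min, a change at 8 h of 0.35 ± 0.10. Vim, the gene of the intermediate filament protein vimentin, had labelled exon values of 29297, 25196 and 28146 at 0 min, 26013, 23420 and 24297 at 4 h and 18898, 16866 and 17996 at 16 h. All 3 at 16 h lay below those of 0 min (change -0.62 ± 0.09, adjusted p = 3.05e-07), and total exons of Vim had 151020, 143280 and 142810 at 16 h, against 266810, 244510 and 231100 at 0 min.

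**Figure D4:**
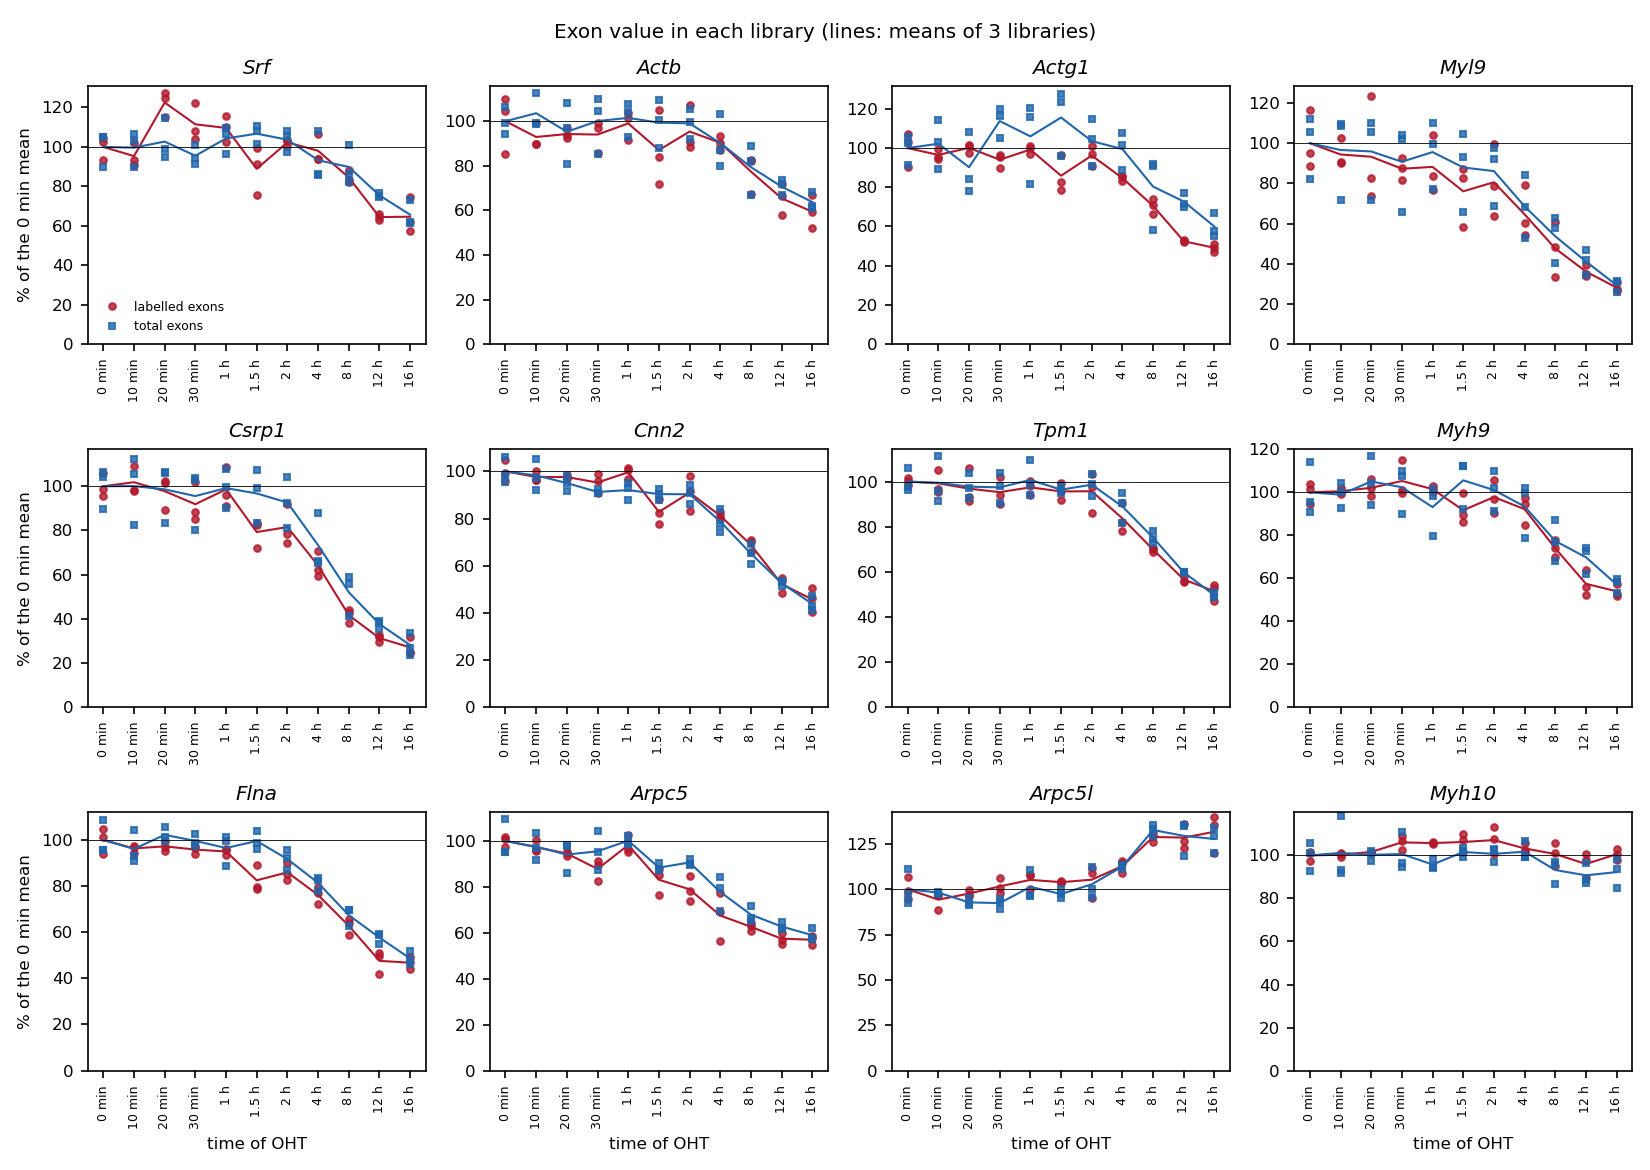
Labelled exon (circles) and total exon (squares) values of 12 genes in each library, as a percentage of the mean at 0 min, over the times of OHT, with lines through the means of 3 libraries. Myl9, Csrp1, Cnn2 and Flna fall steadily from 4 h in both kinds of RNA, Srf is high in labelled exons at 20 min, Arpc5l ends above 0 min and Myh10 stays near it in labelled exons.

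Whether newly made and total RNA changed by different amounts was tested as a difference of differences over all 66 libraries. No member passed at 16 h with limma, while 0.192% of all 11442 genes tested were higher and 0.14% lower in labelled than in total RNA. At an unadjusted p under 0.05, 5 members had a higher and 1 a lower change in labelled RNA. At 4 h no member passed (0.0524% and 0.00874% of all genes), with 1 higher and 1 lower at an unadjusted p under 0.05, and at 8 h none did (0.131% and 0.0874%), with none higher and 1 lower. At 16 h the members' median of labelled minus total change was 0.00, and 0.01 over all genes. The widest differences were of Lmod1 (1.46 ± 0.70 on the log2 scale, labelled minus total, adjusted p = 0.582) and Pdlim2 (0.70 ± 0.27, adjusted p = 0.423), both low genes, and of Flnc (-0.46 ± 0.20, adjusted p = 0.507). A p that misses the threshold does not show that the changes were equal.

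Introns gave the late fall as well. In labelled introns at 16 h, 39 members fell and 1 rose, against 23% and 25.1% of all genes tested, with medians of -0.60 over the members and 0.02 over all genes. In total introns, 42 fell and 3 rose, against 19.9% and 21.4%, with medians of -0.61 and 0.02. The intron to exon ratio within labelled libraries fell at 16 h for Myl12b (-0.68 ± 0.13 on the log2 scale, adjusted p = 0.00332) and Myl9 (-1.24 ± 0.32, adjusted p = 0.0405), while 0.776% of all genes fell and 0.34% rose. Both calls ended without replicate 3 at 16 h, and that of Myl9 also without any library of 0 min. At 4 h no member passed with limma (1.07% of all genes rose and 1.11% fell), with 1 higher and 6 lower at an unadjusted p under 0.05. At 30 min the ratio rose for 8 members, and fell for none, while 9.93% of all genes rose and 5.5% fell. The 8 were Srf (0.44 ± 0.105), Flnc, Arpc2, Arpc1b, Actn1, Actn4, Myh10 and Rock2. Of these, Srf kept the call in all 13 alternatives, and the count was 3 to 7 with 1 library left out. The tests at 30 min were added after the values were seen. The plan held the ratio test and the comparison of labelled with total change only at 16 h. At 1 h, 1.5 h and 4 h the ratio was not run under the alternatives, so the steadiness of its calls there is unknown.

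Ratios between related members were taken within each library for 11 pairs of paralogues, chosen after their values were seen, so no test is given. The ratios are log2 and use exon values not divided by length, so they can be read between times and not as which gene of a pair is more abundant. The ratio of Arpc5 to Arpc5l in labelled exons was -0.39, -0.31 and -0.45 at 16 h, against 0.69, 0.85 and 0.93 at 0 min, with no overlap. Myh9 to Myh10 gave 1.06, 1.00 and 0.98 at 16 h, against 1.94, 1.88 and 1.92 at 0 min. Csrp1 to Csrp2 gave -0.69 ± 0.19 at 16 h and 0.69 ± 0.22 at 0 min (SD, n = 3), Cnn2 to Cnn3 gave -0.51 ± 0.12 at 16 h and 0.15 ± 0.03 at 0 min, and Tpm1 to Tpm3 gave 1.62 ± 0.08 at 16 h and 2.39 ± 0.06 at 0 min. Diaph3 to Diaph1 gave 1.18 ± 0.05 at 16 h and 1.88 ± 0.22 at 0 min. In total exons the ratio was 0.26 ± 0.15 at 16 h and 1.38 ± 0.04 at 0 min for Arpc5 to Arpc5l and 1.39 ± 0.06 at 16 h and 2.07 ± 0.16 at 0 min for Myh9 to Myh10. The values of 16 h and 0 min overlapped for Cfl2 to Cfl1 in labelled exons and for Tagln to Tagln2 in total exons.

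**Figure D5:**
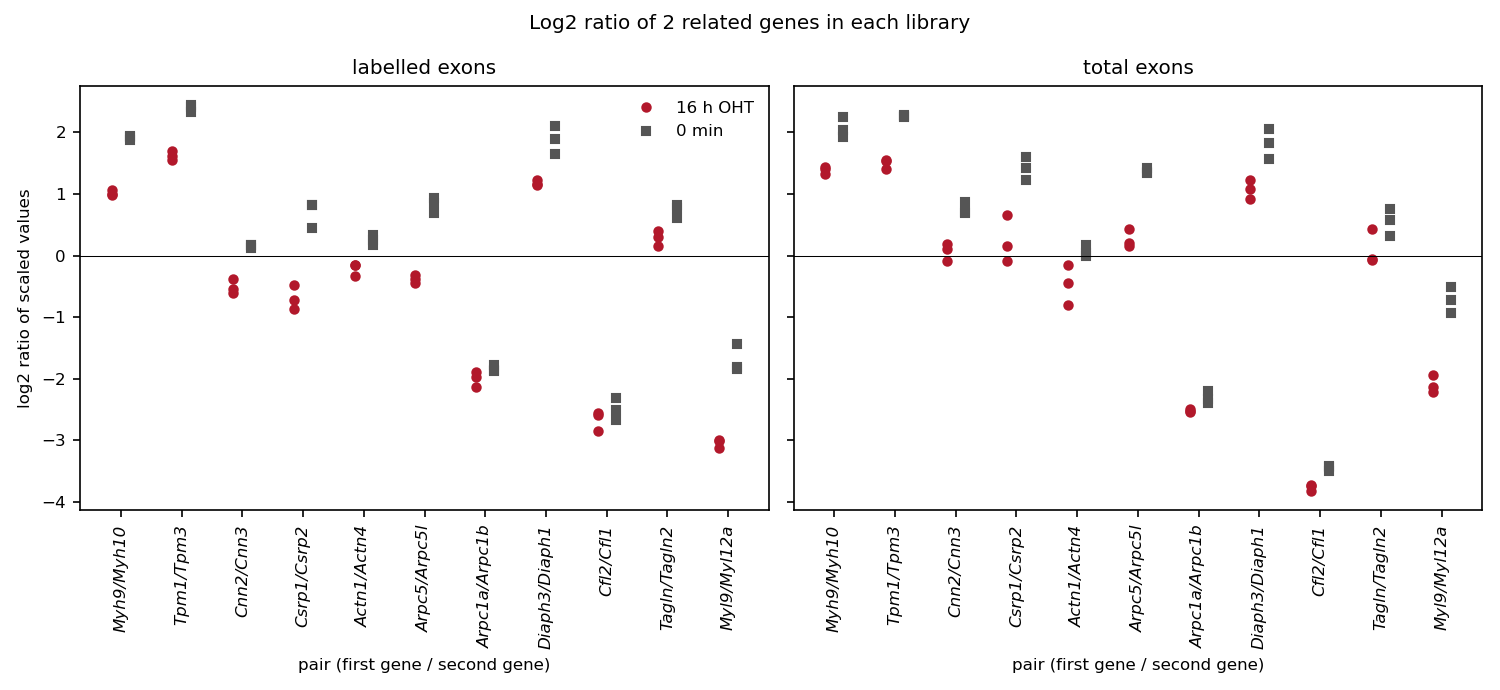
Log2 ratio of the scaled values of 2 related genes in each library at 16 h of OHT (circles) and at 0 min (squares), in labelled and total exons. The ratio of Arpc5 to Arpc5l in labelled exons is -0.45 to -0.31 at 16 h and 0.69 to 0.93 at 0 min.

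Per length, the members spanned a wide range in total RNA. At 0 min the order began with Actb, Vim, Cfl1, Actg1 and Pfn1 and ended with Pdlim2, Mylk and Lmod1. Vim had 1300 ± 51.3 RPKM at 16 h and 2220 ± 192 RPKM at 0 min (SD, n = 3), Cfl1 had 761 ± 37.8 RPKM at 16 h and 978 ± 63.6 RPKM at 0 min, and Actg1 had 456 ± 50.6 RPKM at 16 h and 760 ± 52 RPKM at 0 min. Next came Pfn1 with 459 ± 15 RPKM at 16 h and 593 ± 27.5 RPKM at 0 min, Tpm1 with 242 ± 9.17 RPKM at 16 h and 488 ± 36 RPKM at 0 min and Tpm4 with 275 ± 19.2 RPKM at 16 h and 484 ± 29.2 RPKM at 0 min; the 0 min values of Tpm1 and Tpm4 differed by less than their spread. Flna had 215 ± 9.07 RPKM at 16 h and 443 ± 21.6 RPKM at 0 min and Tagln 154 ± 15.5 RPKM at 16 h and 284 ± 43.5 RPKM at 0 min. The regulators were low, with Srf at 16.5 ± 1.81 RPKM at 16 h and 25.2 ± 2.05 RPKM at 0 min, Mkl1 at 6.41 ± 0.356 RPKM at 16 h and 8.1 ± 0.83 RPKM at 0 min and Mkl2 at 2.49 ± 0.215 RPKM at 16 h and 3.49 ± 0.282 RPKM at 0 min. Lmod1 had 0.0562 ± 0.0407 RPKM at 16 h and 0.247 ± 0.0667 RPKM at 0 min.

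Other genes of the pathway were counted from lists. Of 23 measured further SRF and MRTF targets of the cytoskeleton and adhesions, 21 fell and none rose in labelled exons at 16 h (median log2 change -0.98), against 21.5% of all genes down and 22.9% up, and 21 fell in total exons (median -0.78), where 29% of all genes fell. Tgfb1i1, the gene of the adhesion protein Hic-5, averaged 231 ± 40.1 at 16 h and 1455 ± 151 at 0 min in labelled exons, a change of -2.66 ± 0.17. Fblim1, a filamin-binding adaptor, averaged 96.4 ± 30.9 at 16 h and 456 ± 60.2 at 0 min, a change of -2.28 ± 0.16. Capg, which caps filament ends, changed by -1.65 ± 0.11, and Wdr1, a cofilin partner, by -1.17 ± 0.09. At 4 h, 11 of the 23 fell in labelled exons (18.8% of all genes), and at 1.5 h, 9 did (11.2%). Myh11 and Cotl1 were not called at 16 h. Another list held immediate early genes that SRF controls with ternary complex factors, and the factor genes Elk1, Elk3 and Elk4. Of its 10 measured genes, none rose and 5 fell in labelled exons at 16 h (median -0.70). Elk3, a ternary complex factor, changed by -0.66 ± 0.07, the phosphatase gene Dusp1 by -1.12 ± 0.20, and the transcription factor genes Egr3 and Junb by -1.78 ± 0.36 and -0.74 ± 0.17. At 20 min the median of the genes measured from this list was 0.43, with 1 of 10 called up (3.3% of all genes).

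Of 22 Arp2/3, WAVE and capping partners, 1 rose and 10 fell in labelled exons at 16 h (median -0.23). Tmsb4x, which binds actin monomers, averaged 1666 ± 274 at 16 h and 3996 ± 249 at 0 min, a change of -1.27 ± 0.13. Cttn, the gene of cortactin, changed by -0.73 ± 0.07, Capzb, a capping protein subunit, by -0.56 ± 0.07, and Cyfip1, of the WAVE complex, by -0.37 ± 0.06. Over all genes tested the median at 16 h was 0.02, with 21.5% called down and 22.9% up.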

How the data were processed

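Exon and intron values of labelled and total RNA from 66 libraries were used. The submitters' processing notes list TopHat, TopHat2 2.0.8 and the build mm9, with no role for any. How reads were counted, on which annotation and with or without strand is not given in the sources used here. Tables that the authors deposited under the name counts hold rescaled whole numbers, which were treated as a score, without a count model. The authors deposited RPKM tables that hold the same values times a constant per gene, within 0.66% for values of at least 1000. Depth is therefore unknown, and no counting interval is given. In 13 of the 66 libraries small whole numbers were nearly missing.

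Libraries of a table were scaled by a trimmed mean of log ratios (30% of log ratios and 5% of levels trimmed). Genes had to reach 10 in 3 or more libraries. limma 3.58.1 in R 4.3.3 was fitted with a variance trend to log2(scaled value + 1), with 1 mean per time over the 33 libraries of a table and Benjamini-Hochberg adjustment over all genes tested, and a call is a two-sided adjusted p under 0.05. Labelled and total changes were compared by the interaction over 66 libraries, and introns with exons by the ratio within libraries. On simulated tables with changes planted at 16 h, only the limma test of 16 h against 0 min was tried. An alternative is a change of scaling, filter, pseudocount, unit, replicate block or libraries in the fit.

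A member that is in the counts is not reported here by name. Members and lists were chosen with earlier results of these data known. Values per library are given for the regulators, Actb, Actg1, Tagln, Tpm1, Tpm2, Myl9 and Vim, for up to 3 further called members per role with the largest change in labelled exons at 16 h, and for members called up. Other named members, and the intron values shown at early times, were chosen after their values were seen. From each pathway list up to 4 genes with the smallest p at 16 h are named. Replicate numbers were taken to pair 2 groups where the deviations of every same-numbered pair correlated over 0.1. That held for total exons at 4 h, with correlations of 0.181, 0.189 and 0.12. In total exons they were -0.24, 0.08 and 0.032 at 1 h and 0.047, 0.164 and 0.086 at 16 h. The labels state no pairing, so this rule does not show that the libraries were paired.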

Additional observations from a re-analysis of the deposited data

How the results depend on the processing

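The falls at 16 h were the steadiest result: with 1 library left out, 37 to 40 members fell in labelled exons, 40 to 42 in total exons, 35 to 41 in labelled introns and 38 to 43 in total introns. Of the 40 calls in labelled exons 36 held in all 15 alternatives, as did 41 of 44 in total exons, 36 of 40 in labelled introns and 36 of 45 in total introns. Calls at 4 h were less steady, with 12 of 24 held in labelled exons and 9 of 17 in total exons. With 1 library left out, 18 to 23 members fell at 4 h in labelled exons and 11 to 19 in total exons. The cause of these moves was not tested. Scaling to library sums moved the median of all genes by 0.11 in labelled introns at 16 h and by -0.1 at 30 min, and other scalings by at most 0.06 in size.

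Small counts moved most. In labelled exons at 1 h the 1 fallen member became 3 with library sums and 2 with the median of ratios, with no further scaling, with RPKM + 0.1 and with RPKM + 1, and 0 to 2 with 1 library left out. At 4 h the 2 risen members became 1 with library sums and the median of ratios, and 0 with no further scaling, both RPKM settings and only the 2 times in the fit, with 0 to 1 when 1 library was left out. In total exons at 4 h the 2 risen became 1 with library sums, 0 with no further scaling, both RPKM settings and only the 2 times, and 0 to 1 with 1 library left out. With library sums 2 members rose in labelled exons and 3 in labelled introns at 16 h. In total introns at 16 h the 3 risen became 1 with only the 2 times in the fit and 1 to 2 with 1 library left out.

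The alternatives at 30 min and for the intron to exon ratio were chosen after seeing the data. In labelled introns at 30 min the 10 risen became 6 with library sums and 7 to 10 with 1 library left out. The 2 fallen became 4 with library sums or only the 2 times, 0 with no further scaling or either RPKM setting, and 0 to 2 with 1 library left out. For the ratio at 30 min the 8 risen became 2 with library sums, 4 with no further scaling and 3 to 7 with 1 library left out, and fallen members, 0 at first, became 1 with library sums and 2 with only the 2 times. At 16 h the ratio rose for 1 member with library sums, and the 2 fallen became 0 with no further scaling and 0 to 2 with 1 library left out.

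With the replicate number as a block, 23 members fell in total exons at 4 h, where the rule on correlations was met. In labelled exons at 1 h, where it was not met, 3 fell. The block moved no other count of calls by over 1.5 times.

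No called change turned its direction. With 1 library left out, the median of the members in labelled exons at 1 h (-0.01 with all libraries) ran from -0.048 to 0.021, with 0.015 in the other case above 0. Uncalled changes that turned sign when 1 library was left out were those of Srf in labelled exons at 4 h (-0.092 to 0.002), Actg1 (-0.073 to 0.07, with 0.012 and 0.033 between) and Mkl1 (-0.116 to 0.026, with 0.017 between) in total exons at 4 h, and Rock1 in total exons at 16 h (-0.069 to 0.033). Myh10 at 16 h ran from -0.012 to 0.028 in labelled exons, with -0.01 between, from -0.048 to 0.035 in labelled introns, with 0.009 between, and from -0.016 to 0.045 in total introns, with -0.015 in 2 cases. In labelled exons Myh10 became -0.004 with the median of ratios, -0.016 with no further scaling, -0.015 with RPKM + 0.1 and -0.014 with RPKM + 1. In labelled introns at 16 h library sums gave 0 for Rock1, 0.009 for Arpc1a and 0.096 for Myh10.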
